A study of Mus musculus with 56 samples.

Results

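*Prl*, the gene of prolactin, and *Gh*, the gene of growth hormone, were followed as a pair through single cells of a primary mouse pituitary culture. They were chosen by name, are 2 of the 47069 genes in the count table, and were counted in all 56 wells of the series. Whole glands of C57BL/6 females, 10 to 12 weeks old and cycling at random, were dissociated in pools of 5. The untreated cells were cultured for 4 days, trypsinized and placed in RNA-Best, the stabilizing buffer that the study introduced. Cells that passed a 10-µm filter were captured in single chambers of a C1 microfluidic chip for cells of 5 to 10 µm, so that larger cells could not be sampled, and cDNA was made from polyadenylated RNA with the SMART-Seq method and turned into Nextera libraries. The wells form 1 group with no second condition, and the labels name no animals or cultures, so they were treated as cells of 1 sample: each value stands for 1 well, correlations describe these wells, and no p-value is given.

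Prolactin and growth hormone are related peptide hormones of 1 gene family. Lactotropes release prolactin, are stimulated by estrogen and are held back by dopamine acting on its receptor DRD2, while somatotropes release growth hormone under the drive of growth hormone-releasing hormone and the brake of somatostatin. Both cell types depend on the transcription factor POU1F1 (Pit-1), which acts on the promoters of both hormone genes, and cells that carry both hormones, called mammosomatotropes, are known from the pituitary.

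On the GRCm38 build *Prl* (ENSMUSG00000021342.13) spans positions 27057570 to 27065205 of the plus strand of chromosome 13, and *Gh* (ENSMUSG00000020713.6) spans 106300271 to 106301865 of the minus strand of chromosome 11. Both are protein coding. The counts summed reads over their exons, 1408 bases for *Prl* and 862 for *Gh*, and the longest coding transcripts measured 895 and 862 bases. Since the genes are relatives, it was examined whether reads of one could be counted for the other. The coding sequences of *Prl-201* (678 bases) and *Gh-201* (651 bases) were identical at 364 of 588 aligned bases (61.9%), and their longest common run was 9 bases, shown here in capitals with 30 bases on either side (coding bases 362 to 430 of *Prl* and 538 to 606 of *Gh*, from the GENCODE transcripts), to show how quickly the genes part outside it.
Prl: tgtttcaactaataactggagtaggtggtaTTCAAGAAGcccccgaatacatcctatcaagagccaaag
Gh: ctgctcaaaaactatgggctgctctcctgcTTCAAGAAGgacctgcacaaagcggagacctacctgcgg
None of the 1405 stretches of 50 bases in the *Prl* transcripts and none of the 813 in those of *Gh* occurred in a transcript of another gene on either strand. *Gm47888*, which lies antisense to the start of *Prl*, was not among the genes counted, and whether counting used the strand is not given in the sources used here, so its reads and those of *Prl* were not separated. *Cd79b*, the only other gene within 10 kb of *Gh*, had 0 counts in all 56 wells.

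The 250 bases upstream of the *Prl* start (RefSeq, GRCm38.p6, chr13:27057320-27057569, plus strand) are shown because *Prl* was set beside *Pou1f1*, whose product acts there. Capitals mark matches to ATGNATA, a core of the sites that POU1F1 is known to bind, searched on both strands.
Prl promoter: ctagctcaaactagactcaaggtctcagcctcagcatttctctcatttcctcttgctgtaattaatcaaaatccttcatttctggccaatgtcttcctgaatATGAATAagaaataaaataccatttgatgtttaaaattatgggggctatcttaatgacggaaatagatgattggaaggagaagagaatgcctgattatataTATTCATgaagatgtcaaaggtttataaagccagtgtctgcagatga
The matches lay at -148 to -142 on the plus strand and at -47 to -41 on the minus strand, counted from the start. Of 32851 promoters of the same length, 7.92% held at least 1 such match and 1.26% held 2 or more. TATAAA, the TATA box core, matched at -24 to -19 on the plus strand and, overlapping it, at -26 to -21 on the minus strand, and 12.4% of promoters held it. A match of letters describes the window and does not show that a factor bound there. *Gh* had no entry in the promoter table.

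The wells differed widely in depth. Gene counts ranged from 357 to 12563266 with a median of 711525, and ERCC spike-in RNAs took from 0.144% to 74.9% of all counts (median 7.95%). In 46 wells the gene counts reached 100000, the limit used below to relate other genes to the hormones, and the 10 wells under it all lay in plate columns 4 to 6 and 10 to 12. Wells B6 and H10 had under 2000 gene counts. C10 and C11, which were counted once in an alternative, had a median absolute log2 ratio of 0.17 over 951 genes. No other pair of wells was set beside them, and their ratios of *Gh* to *Prl* counts were 0.119 and 0.0751.

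*Prl* had the most counts in most wells, and *Gh* was counted beside it in every well. Whether all counts of a well came from RNA of the cell in it was not tested. The level of *Prl*, in counts scaled to 1000000 gene counts (CPM, spike-ins left out), ran from 1216 in D10 to 776624 in C2, with a median of 208371 and quartiles of 120754 and 350482. That of *Gh* ran from 162 in C1 to 307675 in C9, with a median of 11494 and quartiles of 1540 and 29137. *Prl* had more counts than any other gene in 46 of 56 wells and never ranked below place 83, whereas *Gh* led in 2 wells, was among the 10 highest genes in 35 and fell as low as place 940. Together the hormones took a median of 23.6% of the gene counts of a well, from 0.220% in D10 to 80.5% in C2, and more than 50% in 5 wells.

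The levels of *Prl* were not spread evenly over their range. At 100000 CPM or more stood 44 of 56 wells (78.6%, exact Clopper-Pearson 95% interval 65.6% to 88.4%), 5 wells lay between 10000 and 100000 CPM, and 7 wells lay lower. In those 7, *Prl* was at 1216 CPM in D10, 2069 in H11, 2171 in F4, 2182 in F11, 2286 in B12, 3020 in E8 and 7311 in B2, so 6 of them lay between 1216 and 3020 CPM. All 7 were deeply sequenced, and in the least of them, D10, the level rested on 3687 *Prl* counts. The levels of *Gh* were spread otherwise, with 17 wells under 2000 CPM, 7 at 50000 CPM or more, and the others between, though no well lay between 1778 CPM in H10 and 4356 CPM in H4.

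Taking 100000 CPM of *Prl* and 10000 CPM of *Gh* as limits, 28 wells (50.0%, interval 36.3% to 63.7%) were above both, 16 were above the *Prl* limit alone, 2 were above the *Gh* limit alone and 10 were below both. The 2 wells of the third kind were B12 and H11, in which *Gh* stood at 10514 and 12350 CPM. The highest levels of *Gh* were therefore found in wells that also carried much *Prl*: C9 had *Gh* at 307675 and *Prl* at 124249 CPM, A11 had 202245 and 204530, and E7 had 91677 and 116813. The lowest levels of *Gh* were also found beside much *Prl*, with *Gh* at 162 CPM and *Prl* at 431844 in C1 and *Gh* at 390 and *Prl* at 466366 in G1.

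**Figure D1:**
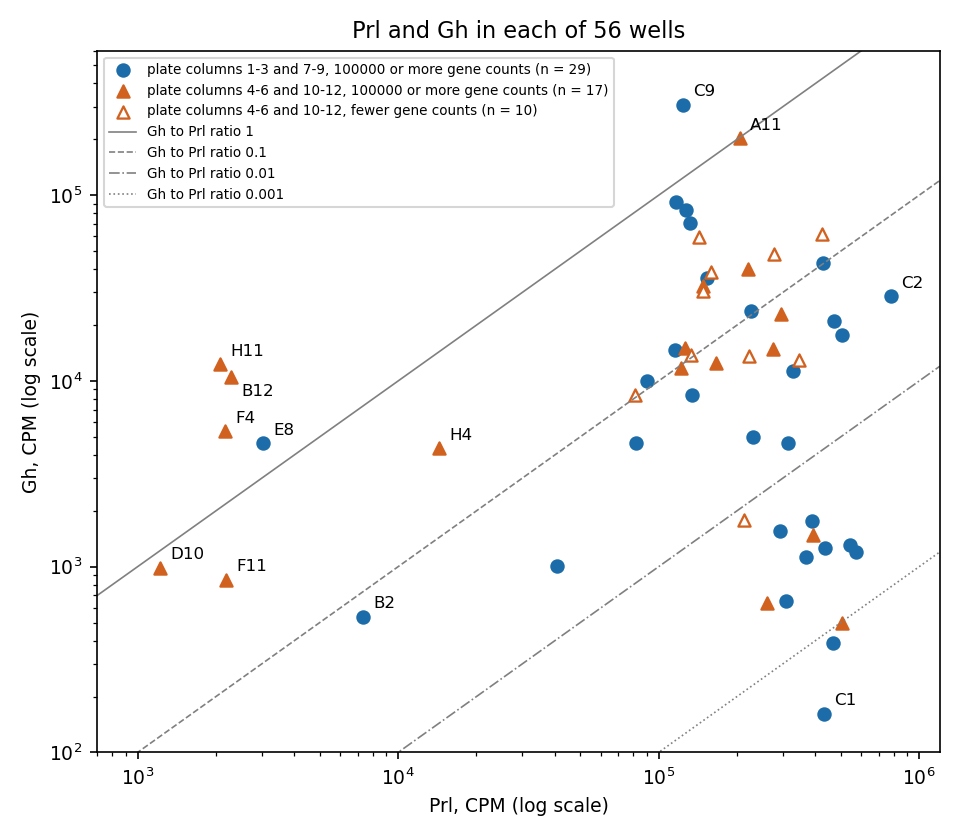
Level of *Prl* (x axis, CPM) against that of *Gh* (y axis, CPM) in each of 56 wells, both on log scales; circles are wells of plate columns 1 to 3 and 7 to 9, triangles those of columns 4 to 6 and 10 to 12, open symbols wells under 100000 gene counts, and lines mark equal *Gh* to *Prl* ratios. Most wells stand at 100000 CPM of *Prl* or more and spread over *Gh* from 162 CPM in C1 to 307675 in C9, apart from a small set of low *Prl* at the left.

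In CPM the hormones did not clearly rise or fall together. Spearman's rho of *Prl* and *Gh* in CPM was -0.0842 over 56 wells and -0.109 over the 46 deep wells, and Pearson's r of log2(CPM + 1) was 0.0985 over 56 wells. Without the 2 wells farthest from the median of *Prl*, rho was -0.135. With gene counts and ERCC share held fixed by partial rank correlation, it was -0.211 over 56 wells. These values share a denominator in each well, and *Prl* alone took up to 77.7% of it, but with both hormones taken out of the total rho was 0.0624. Of 5885 other genes compared in the deep wells, 35.9% had a lower rho with *Prl* than *Gh* did, and 46.8% had a lower rho with *Gh* than *Prl* did, so the pair lay well inside the range of all genes.

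The balance of the hormones, the ratio of *Gh* to *Prl* counts within a well, does not depend on the total. Its median was 0.0871, and it spanned a 15927-fold range. *Gh* was under 0.01 of *Prl* in 13 wells (23.2%, interval 13.0% to 36.4%), between 0.01 and 0.1 in 16 (28.6%), between 0.1 and 1 in 22 (39.3%, interval 26.5% to 53.2%), and above *Prl* in 5 (8.93%, interval 2.96% to 19.6%). The lowest ratios were 0.000375 in C1, 0.000836 in G1 and 0.000981 in H12. The 5 wells with more *Gh* were E8 (ratio 1.53), C9 (2.48), F4 (2.48), B12 (4.60) and H11 (5.97), and of these only C9 was rich in both hormones, since *Gh* was at 4618 to 12350 CPM and *Prl* at 2069 to 3020 CPM in the other 4.

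Counting error was small against this spread in nearly all wells. In C1, *Gh* made up 0.0375% of the counts of both hormones (exact 95% interval 0.0353% to 0.0397%, from 1108 *Gh* counts), and in H11 it made up 85.7% (85.4% to 85.9%). The exceptions were H10 and B6, each with 3 *Gh* counts, whose intervals ran from 0.172% to 2.41% and from 1.98% to 25.0%. Of the 55 pairs of neighbours in the order of the ratio, 22 had overlapping intervals, C9 and F4 for example, while 33 did not overlap. Overlap of separate intervals leaves the order of such neighbours unsettled and does not show that they were alike. These intervals cover counting error only, since the libraries carried no molecular identifiers and each well was measured once.

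**Figure D2:**
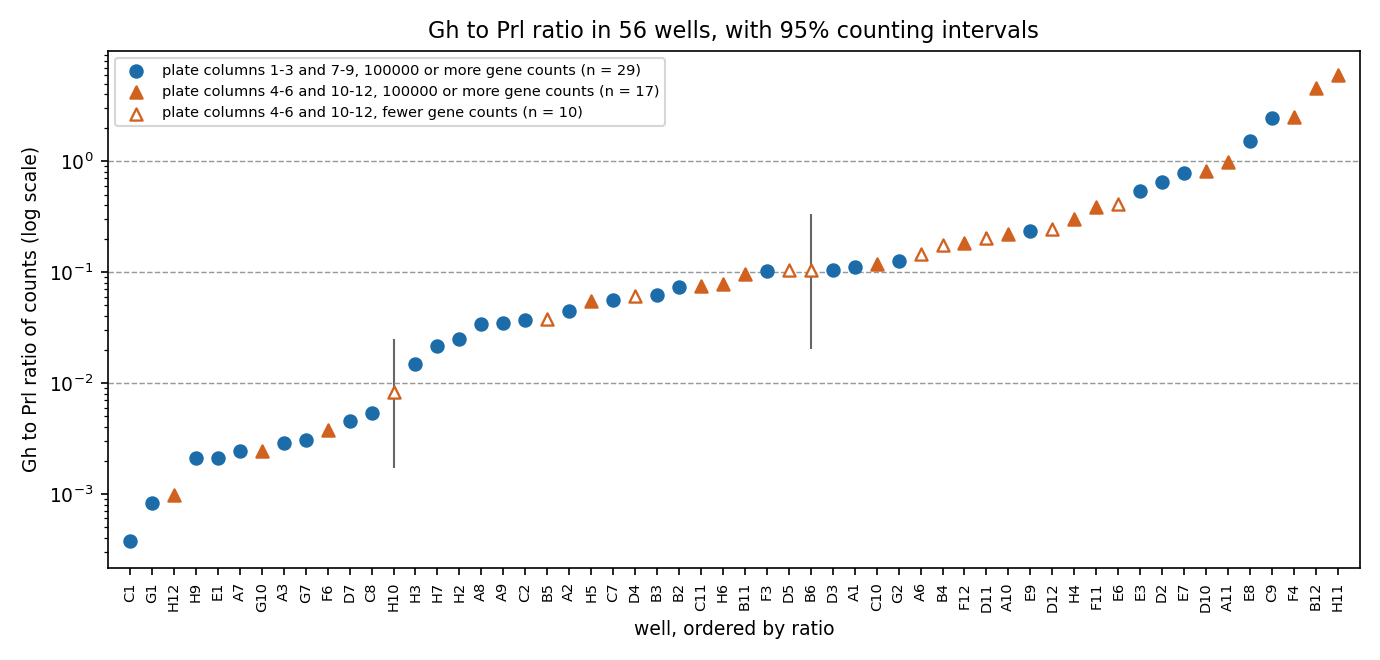
Ratio of *Gh* to *Prl* counts (y axis, log scale) in 56 wells placed in order (x axis), with exact 95% counting intervals as vertical lines, which are visible mainly for H10 and B6; dashed lines mark ratios of 0.01, 0.1 and 1. The ratio spans 0.000375 in C1 to 5.97 in H11.

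The share of wells that carried both hormones in comparable amounts depended on the limit chosen. The lesser hormone reached 10% of the greater in 27 of 56 wells (48.2%, interval 34.7% to 62.0%), 1% in 43 (76.8%) and 50% in 6 (10.7%). The 6 most balanced wells were A11, where the lesser hormone stood at 98.9% of the greater, D10 (81.2%), E7 (78.5%), E8 (65.4%), D2 (64.7%) and E3 (54.0%). They were unlike in level: A11, E7, D2 and E3 had 71095 to 202245 CPM of *Gh* and 116813 to 204530 CPM of *Prl*, while D10 had 988 and 1216 CPM and E8 had 4618 and 3020 CPM. In D10 and E8 the corticotrope hormone gene *Pomc* was at 51676 and 356901 CPM.

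Because *Prl* is longer than *Gh*, a ratio of counts understates *Gh* per molecule, by an amount that depends on the length used. The exon union, which joins all annotated transcripts, measured 1408 bases for *Prl* and 862 for *Gh*. The longest coding transcripts, nearer to the length of a molecule, measured 895 and 862 bases. Per kilobase of exon union, the median ratio of *Gh* to *Prl* was 0.142 and *Gh* lay above *Prl* in 9 wells (16.1%). Per kilobase of the longest coding transcript, it was 0.0904, with *Gh* above *Prl* in 6 wells, the sixth being A11, whose ratio was 0.989 in counts and 1.03 per length. On that scale the median level was 232817 CPM per kilobase for *Prl* and 13335 for *Gh*.

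The balance differed between parts of the plate. In the 29 wells of plate columns 1 to 3 and 7 to 9 the median ratio of *Gh* to *Prl* was 0.0370 and the lesser hormone reached 10% of the greater in 10 wells (34.5%, interval 17.9% to 54.3%). In the 27 wells of columns 4 to 6 and 10 to 12 the median ratio was 0.146 and 17 wells (63.0%, interval 42.4% to 80.6%) reached that limit, so the intervals of the shares overlapped. Median *Prl* was 291391 CPM in the former and 158243 in the latter, and median *Gh* was 4964 and 12912 CPM. The sets of columns also differed in ERCC share, with medians of 7.41% and 36.2%. Among the 17 deep wells of the latter columns the ERCC share was lower, with a median of 2.06%, and the median ratio was 0.182. The rho of *Prl* and *Gh* was -0.159 in the former columns and 0.236 in the latter, opposite in sign and both weak. The part of plate position in the balance was not tested.

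The level of *Gh* in CPM moved with the depth and the spike-in share of a well, and that of *Prl* did so much less. Over the 46 deep wells, rho of *Gh* with ERCC share was 0.643 and with gene counts -0.727, against 0.0473 and -0.103 for *Prl*. The ratio moved less than *Gh* itself, with values of 0.272 and -0.286. Within plate columns, over all their wells, rho of *Gh* with ERCC share was 0.540 in the 29 wells of columns 1 to 3 and 7 to 9 and 0.836 in the 27 wells of columns 4 to 6 and 10 to 12, and that of *Prl* was 0.0448 and 0.349. These relations share the gene total of the well, and their part in the levels of *Gh* was not tested.

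In the 20 wells with an ERCC share under 1%, *Gh* had a median of 1166 CPM and *Prl* one of 276530 CPM. In the 20 wells with a share of 30% or more, *Gh* had a median of 22034 CPM, while *Prl* was at 248490 CPM, close to its level in the former wells. The spread was as different as the medians. Among wells under 1% the ratio of *Gh* to *Prl* ran from 0.000375 to 4.60, with an SD of 4.30 on the log2 scale, and *Prl* ran from 1216 to 573124 CPM. Among wells at 30% or more the ratio ran from 0.00287 in A3 to 0.989 in A11, with an SD of 1.73, and *Prl* kept within 126092 to 505876 CPM. All 7 wells with *Prl* under 10000 CPM had an ERCC share of 2.06% or less.

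Levels relative to the spike-ins, which are meant to stand in for a constant amount of added RNA, gave another order of wells. *Prl* counts per ERCC count ranged from 0.0985 in H11 to 352 in H12, with a median of 0.618, and exceeded 10 in 14 wells. *Gh* counts per ERCC count ranged from 0.000738 in A3 to 22.5 in E9, with a median of 0.0997, and reached 1 in 4 wells. By this measure E9, which was unremarkable in CPM (*Gh* 35891, *Prl* 152808), had the highest *Gh*, ahead of C9 with 3.84, B12 with 3.01 and B11 with 2.96. The value of E9 rested on only 1188 ERCC counts. All other gene counts per ERCC count were also highest there, at 508, so its place is not particular to *Gh*. The 7 wells with *Prl* under 10000 CPM had 0.0985 to 1.11 *Prl* counts per ERCC count, which overlaps the 0.105 to 0.759 of the wells with an ERCC share of 30% or more, in all of which *Prl* exceeded 100000 CPM.

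Per ERCC count *Prl* and *Gh* rose together, with rho 0.534 over 56 wells, but both share that denominator, and all other gene counts per ERCC count rose with them (rho 0.711 with *Prl* and 0.781 with *Gh*). The sign of the relation thus depended on the scale, and only the ratio within a well was the same on both.

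**Figure D3:**
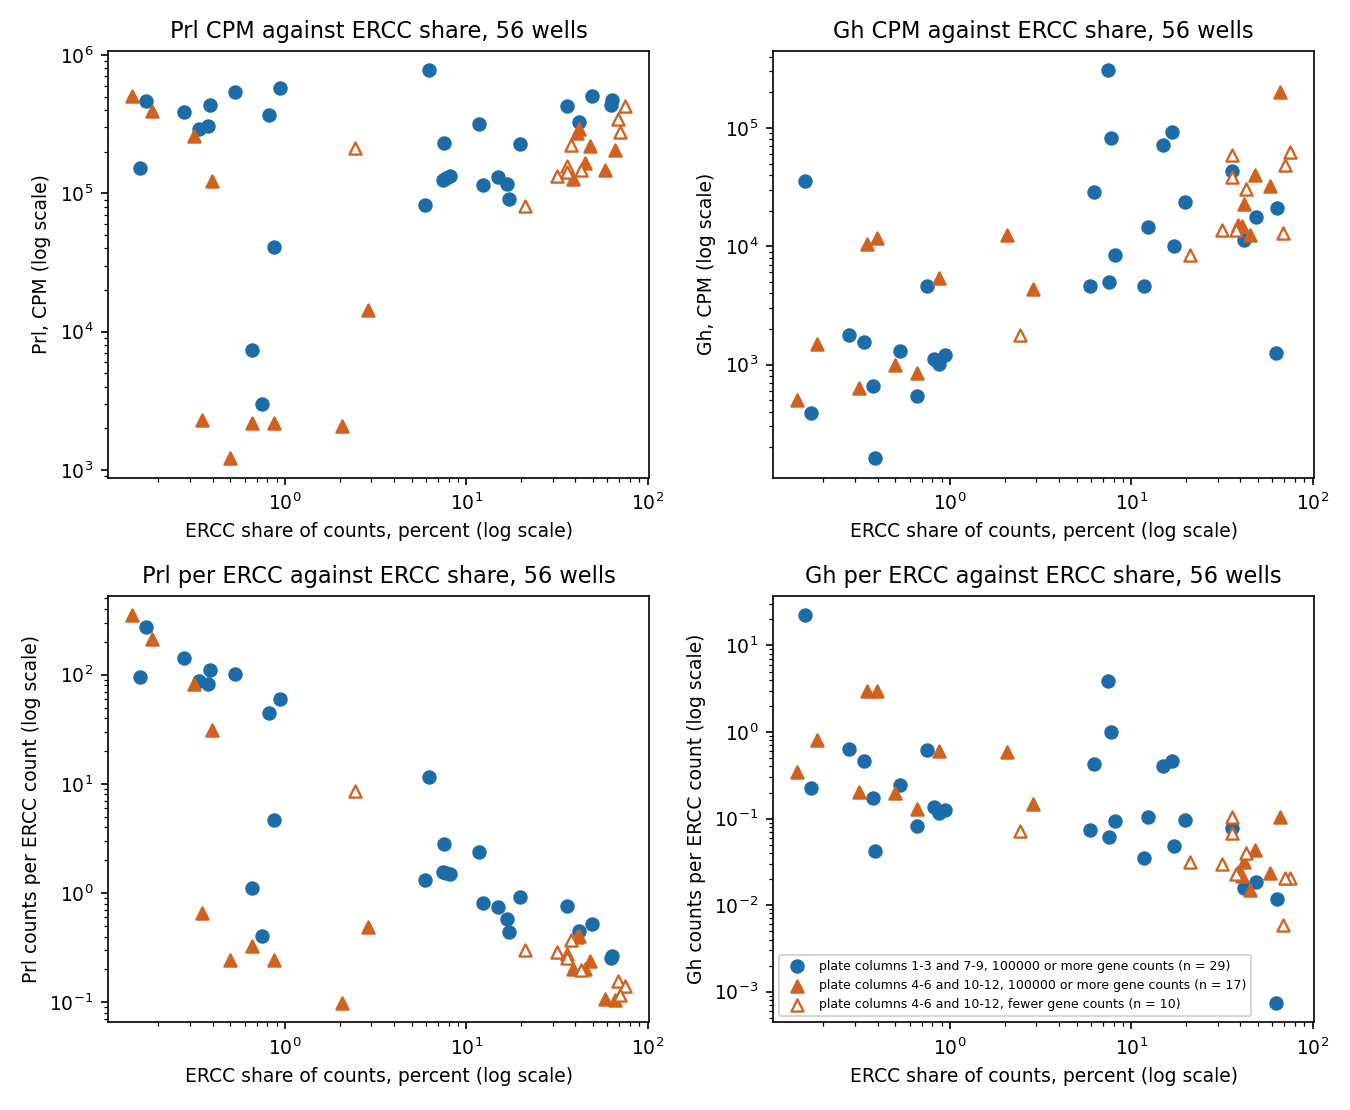
Levels in 56 wells against the share of counts taken by ERCC spike-ins (x axes, percent, log scale), with *Prl* at the left and *Gh* at the right, in CPM above and per ERCC count below (y axes, log scales); symbols as in the plot of *Prl* against *Gh*. *Gh* in CPM climbs with the ERCC share (rho 0.643 in deep wells) while *Prl* does not (0.0473). Per ERCC count both decline with it, but ERCC counts enter both axes of the lower plots, so a decline is built in. Over 56 wells rho with the share was -0.772 for *Prl*, -0.786 for *Gh* and -0.987 for all other gene counts per ERCC count.

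To find which genes followed each hormone, Spearman's rho of CPM was calculated in the 46 deep wells for 5885 genes that had a mean of at least 10 CPM and 1 count in at least 50% of the wells. A gene was called at rho of 0.5 or more, or -0.5 or less. Few genes followed *Prl*: 5 of 5885 (0.085%) were called high and 1 (0.017%) was called low. For *Gh* 32 genes (0.544%) were called high and 26 (0.442%) low. No gene was called high with both, which at shares this small is no result about the pair. For the ratio 1 gene (0.017%) was called high and 5 (0.085%) low. The median rho over all genes was -0.0541 with *Prl*, -0.0927 with *Gh* and -0.00857 with the ratio.

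The gene most like *Prl* was *Crhbp*, which encodes the secreted binding protein of corticotropin-releasing hormone and lies on chromosome 13 like *Prl*, at 95431371 to 95444924. It was counted in all 46 wells, from 9.23 CPM in B12 through a median of 1510 to 29088 CPM in G10. Its rho with *Prl* was 0.639, with *Gh* -0.0203 and with ERCC share -0.167, and its rho with *Prl* was 0.489 in columns 1 to 3 and 7 to 9 and 0.806 in columns 4 to 6 and 10 to 12 (17 deep wells).

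The wells poor in *Prl* were also the wells poorest in *Crhbp*. *Crhbp* was at 18.5 CPM in D10, 13.4 in H11, 12.7 in F4, 11.9 in F11, 9.23 in B12, 37.3 in E8 and 72.7 in B2, and at 16.6 CPM in H4, where *Prl* was at 14379 CPM. In every other deep well it was above 100 CPM. Set against *Prl*, *Crhbp* kept within narrower bounds than either gene alone: its counts were a median of 0.979% of those of *Prl*, with quartiles of 0.430% and 1.52%. The extremes were 0.0508% in E1 and 11.1% in G10. In the 7 wells poor in *Prl* this share was 0.404% to 1.52%, near the median of all wells, although *Crhbp* against *Gh* ran from 0.0878% in B12 to 13.5% in B2 in the same wells. *Crhbp* was named for its rho with *Prl* in these wells, so its low levels and narrower bounds restate that choice. No other gene was set against *Prl* in this way, and a rho among the wells rich in *Prl* alone is not given here.

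*Ptpn5*, which encodes a tyrosine phosphatase known from neurons, came next with rho 0.597. It was sparse, with 1 count or more in 28 of 46 wells and a median of 0.789 CPM, and its highest levels, 528 CPM in G7 and 452 in A7, were in wells with *Prl* at 366756 and 541551 CPM. It was at 0 CPM in D10, H11, F4, B12 and E8, but also in wells rich in *Prl*, such as F3 with *Prl* at 427823 CPM. The others called were *Nhp2* (0.514), a protein of small nucleolar ribonucleoproteins, *Abhd5* (0.503), an activator of triglyceride lipase, and *C1galt1c1* (0.503), a chaperone of O-glycosylation, whose highest level, 399 CPM, was nevertheless in F4, a well poor in *Prl*. Those that followed were *Pcca* (0.497), a subunit of propionyl-CoA carboxylase, the chemokine *Ccl2* (0.490), the glutathione transferase *Gstm1* (0.487), *Fam162a* (0.473) and *Ptrh2* (0.463), a mitochondrial peptidyl-tRNA hydrolase. *Abhd5* had a median of only 0.0398 CPM and 23 wells with a count, and 18.9% of the 50-base stretches of *Gstm1* also occur in relatives, so both values are uncertain.

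The 5 genes with the lowest rho with *Prl* were *Gm9234* (-0.534), *Slc24a2* (-0.498), a potassium-dependent sodium-calcium exchanger, *Gm5558* (-0.494), *Gm13493* (-0.483) and *E030024N20Rik* (-0.482). All but *Slc24a2* are processed pseudogenes of 492 to 495 bases, each highest in A10, and each shared 30.5% to 83.3% of its 50-base stretches with other genes, *Ppia* among them. *Ppia*, which encodes cyclophilin A and was looked at after these values were seen, had rho -0.470 with *Prl* and a range of 193 to 8665 CPM. Reads could have been divided among these copies, which was not tested, so their values are uncertain and may not be independent. With both hormones taken out of the total, the genes called high with *Prl* numbered 28 and those called low 0, and the 5 genes had rho from -0.490 to -0.168.

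Genes were ranked by rho with *Gh* in the same way. The 10 genes with the highest rho were *Gm42826* (0.693), a locus annotated as to be experimentally tested, *Rps6ka4* (0.659), the kinase MSK2, *Sap130* (0.658), a subunit of the Sin3A corepressor complex, the pseudogene *Ppp4r1l-ps* (0.617), *Ston2* (0.588), an adaptor of endocytosis, *Bcl2l2* (0.586), an inhibitor of apoptosis, *Sprr1a* (0.576), *Tdp1* (0.564) and *Uimc1* (0.564), both of DNA repair, and *Qtrt1* (0.563), a tRNA-modifying enzyme. All were low: *Gm42826* had a median of 14.1 CPM and the highest value of the 10 was 724 CPM, for *Ppp4r1l-ps* in C10. The 5 lowest were *Polr1d* (-0.681), a subunit shared by RNA polymerases I and III, *Akap11* (-0.617), an anchor of protein kinase A, the ribosomal protein gene *Rpl7* (-0.597), its copy *Gm12174* (-0.589), which shared 72.0% of its 50-base stretches with other genes, and *Cnot7* (-0.583), a deadenylase.

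These genes moved with depth and spike-in share as *Gh* did. *Gm42826* had rho 0.845 with ERCC share, above its value with *Gh*, and the other 9 of the highest had 0.283 to 0.598. The 5 lowest had rho of -0.80 to -0.528 with ERCC share. When gene counts and ERCC share were held fixed by partial rank correlation, the genes called with *Gh* fell from 32 to 2 high and from 26 to 0 low, and the 10 named first had partial values of 0.192 to 0.439. For *Prl* the same step raised the calls from 5 to 9 high and from 1 to 6 low, with *Crhbp* at 0.669 and *Ptpn5* at 0.629, and 9 of its 10 highest genes remained among the 10 highest. The 2 genes called with *Gh* in this way were *Mfsd5* (0.564) and *Hist2h2be* (0.50), named after their values were seen. In thinned counts, with each well reduced to 100000 counts, 4 genes were called high with *Prl* and 15 with *Gh*.

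**Figure D4:**
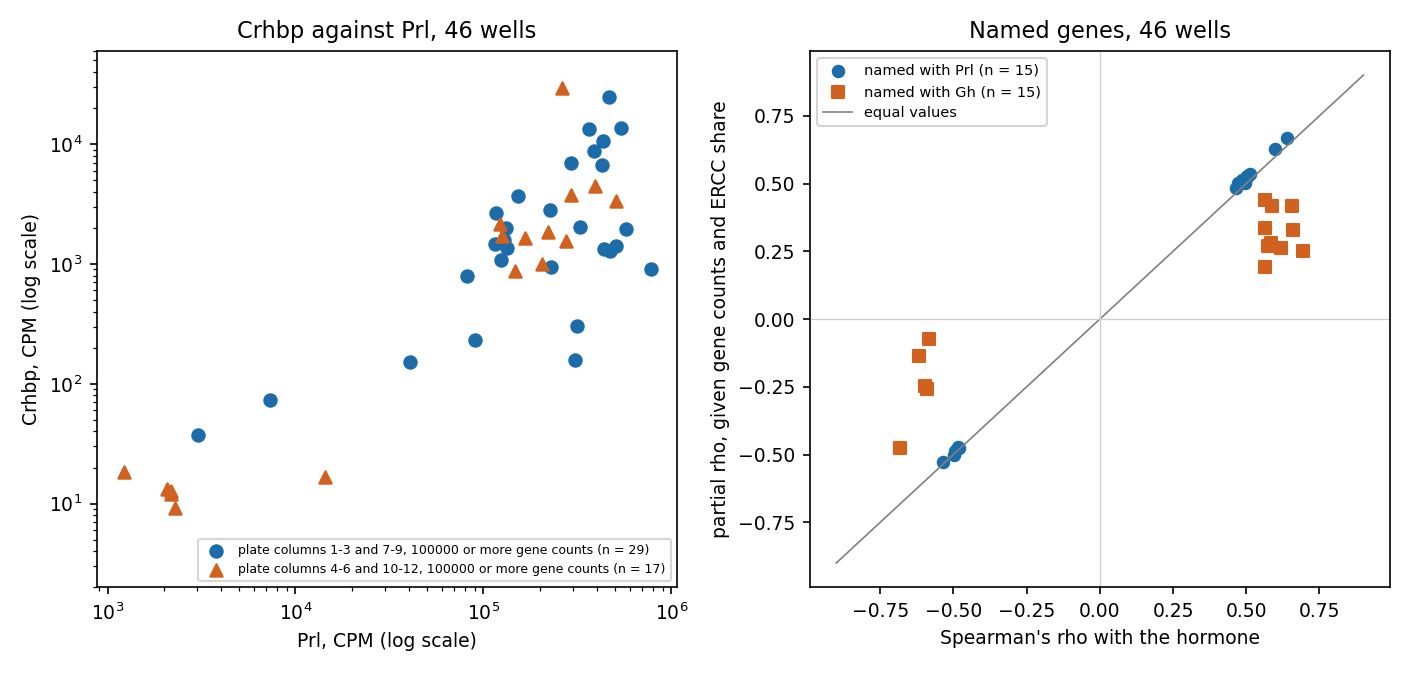
Left, level of *Crhbp* (y axis, CPM, log scale) against *Prl* (x axis, CPM, log scale) in the 46 deep wells, with symbols for the sets of plate columns; *Crhbp* falls below 100 CPM only in wells with *Prl* at 14379 CPM or less. Right, partial rho given gene counts and ERCC share (y axis) against plain rho (x axis) for the 15 genes named with *Prl* (circles) and the 15 named with *Gh* (squares); the former lie close to the line of equal values and the latter lie nearer to 0.

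The ratio of *Gh* to *Prl* was followed upward by *Atf7ip* alone among the genes called (rho 0.599), which encodes a partner of the histone methyltransferase SETDB1. Its median was 20.4 CPM, and its rho was 0.685 in columns 1 to 3 and 7 to 9 but -0.00735 in columns 4 to 6 and 10 to 12, so it rested on the former. *Taf2* (0.496), of the general factor TFIID, *Stx3* (0.477), a syntaxin of membrane fusion, *Tmem176a* (0.447), *Ash2l* (0.445), of histone methyltransferase complexes, *Xrcc1* (0.444), of DNA repair, *Trp53i11* (0.434), *Bmyc* (0.433), *Tia1* (0.427), an RNA-binding protein of stress granules, and *Zfp280d* (0.421) followed. Several of these were also near 0 in the latter columns: rho in the former and the latter was 0.702 and 0.0590 for *Taf2*, 0.482 and 0.0980 for *Stx3*, 0.562 and -0.0613 for *Xrcc1*, 0.487 and 0.105 for *Trp53i11*, and 0.436 and 0.0809 for *Zfp280d*. Among the 10, *Tmem176a* was the 1 gene with a count in all 46 wells, with a range of 0.563 to 1305 CPM, its highest level in H11, and rho 0.257 and 0.456 in the sets of columns. The 5 genes that fell most as the ratio rose were *Ptpn5* (-0.612), *Gstm1* (-0.600), *Nhp2* (-0.580), *Fam162a* (-0.557) and *Crhbp* (-0.539). All 5 were also among the 10 genes most like *Prl*, which is the denominator of the ratio.

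Genes known to control lactotropes and somatotropes were set beside the hormones. Of 24 such regulators 7 passed the filter on level and detection, and 0 of these 7 were called with *Prl*, with *Gh* or with the ratio, where 0.017% to 0.544% of all genes were called in either direction, so that this count is no result about the regulators. Their median rho was 0.00629 with *Prl* and 0.0196 with *Gh*. *Pou1f1* was counted in 45 of 46 wells with a median of 26.0 CPM and had rho 0.216 with *Prl*, 0.297 with *Gh* and -0.0674 with the ratio. The neuronal differentiation factor *Neurod4* had 0.345 with *Prl* and -0.147 with *Gh*, the orphan receptor *Nr4a1* had -0.177 and 0.300, the estrogen receptor *Esr1*, counted in 24 wells, had 0.00629 and -0.00564, and the neuropeptide *Gal*, counted in every well from 3.04 to 14191 CPM, had -0.0643 and -0.0624. *Dlk1*, an imprinted gene of the Notch ligand family, had 0.143 and 0.250.

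The receptors by which the hypothalamus acts on these cells were scarcely detected. *Drd2* was counted in 1 deep well, G1, at 16.6 CPM beside *Prl* at 466366 CPM. *Ghrhr* was counted in 2, at most at 14.2 CPM in H11, *Sstr2* in 1, and *Trhr*, *Ghsr*, *Sstr5* and *Gpr101* were at 0 CPM in all 46. The defining receptors of both cell types were thus at or near 0 in wells rich in either hormone, so that the wells could not be named by them. *Lhx3*, which was counted in 15 wells and did not pass the filter, had rho -0.545 with *Gh* and -0.395 with ERCC share. *Prlr*, the prolactin receptor, was counted in 11 wells and reached 494 CPM in H11.

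H11, the well with the highest ratio of *Gh* to *Prl*, was also the highest of the deep wells for *Pou1f1* (695 CPM), *Neurod4* (1103), *Esr1* (177), *Prlr* (494), *Ghrhr* (14.2), *Gal* (14191) and *Vip* (246), which was noticed after the values were seen. The 24 regulators summed to 18264 CPM there, against a median of 930 CPM. Both hormones together made up 1.44% of its counts. The next wells in the order, B12, F4 and C9, had *Pou1f1* at 2.84, 1.41 and 7.37 CPM, below its median.

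Genes of the secretory granule, which stores both hormones, were examined likewise. Of 20 genes 19 passed the filter and 0 were called in any direction, which at the background of 0.017% to 0.544% says nothing particular about them, and their median rho was -0.160 with *Prl*, -0.0739 with *Gh* and 0.0794 with the ratio. Over all genes the median rho was -0.0541 with *Prl*, -0.0927 with *Gh* and -0.00857 with the ratio. With *Prl*, the highest of the 19 was *Chgb*, chromogranin B, with 0.322. The lowest was *Pam*, the enzyme that amidates peptide hormones, with -0.405, and *Pcsk1n*, an inhibitor of prohormone convertase, had -0.359. *Prl* took up to 77.7% of the gene total that these values share, and values with it taken out are not given here. *Cpe* (-0.365) and *Pam* (-0.349) were lowest with *Gh*, and their partial values with gene counts and ERCC share held fixed were -0.00295 and 0.0319.

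Other members of the prolactin family, which serve the placenta, were nearly silent. Of 25 such genes 18 had 0 CPM in all deep wells, and the largest count was 25, for *Prl8a2* in G2, at 23.8 CPM. *Prl3d2* reached 6 counts in B3. The *Prl* values were therefore not shared with its paralogs to any extent that these counts show.

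The hormone genes of other pituitary cells were compared with the pair. *Pomc* had rho -0.138 with *Prl* and 0.0936 with *Gh* in the deep wells. This differed between plate columns: rho of *Pomc* with *Prl* was -0.449 in the 29 wells of columns 1 to 3 and 7 to 9 and 0.10 in the 27 wells of columns 4 to 6 and 10 to 12, and with the ratio it was 0.486 and -0.164. *Tshb*, of thyroid-stimulating hormone, had rho 0.362 with *Prl* and 0.117 with *Gh*, at a median of 0.996 CPM, and did not pass the filter. *Cga*, the shared subunit of the glycoprotein hormones, had 0.0478 with *Prl* and 0.395 with *Gh*, and *Lhb*, of luteinizing hormone, had 0.0548 and 0.443, but with gene counts and ERCC share held fixed their values with *Gh* were 0.0345 and 0.0451. The wells poor in *Prl* were of more than one kind. *Pomc* was at 356901 CPM in E8, 298862 in B2, 180795 in F11 and 51676 in D10, and at 102, 33.8 and 21.4 CPM in B12, F4 and H11, the wells of highest ratio of *Gh* to *Prl*.

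Markers of cell types that make neither hormone were summed in each deep well. The 5 endothelial markers ran from 0 to 8855 CPM, highest in H4, where *Prl* was at 14379 and *Gh* at 4356 CPM, so both hormone RNAs were counted beside a marked endothelial signature. The 5 folliculostellate or stem cell markers ran from 0 to 26077 CPM, highest in A2, where *Cyp2f2* alone made up the sum, with *Sox2* at 0 throughout, the 5 macrophage markers from 0 to 177, highest in F12, the 5 fibroblast markers from 0 to 512, highest in A7, where *Col1a2* alone made up the sum, with *Col1a1* and *Lum* at 0 throughout, and the 3 red blood cell markers from 0 to 81639, highest in F11. The summed gonadotrope markers reached 122456 CPM in E3, those of thyrotropes 57544 in E3, of which *Cga*, also a gonadotrope marker, made up 57530, and those of corticotropes and melanotropes 358509 in E8. With *Gh* the sums had rho of 0.414 for gonadotropes, 0.392 for thyrotropes (*Cga* alone 0.395), 0.344 for macrophages and 0.339 for red blood cells, and with *Prl* the highest was 0.265, for fibroblasts. Like *Gh*, the members moved with ERCC share, with rho 0.519 for *Cga*, 0.570 for *Lhb*, 0.463 for *Hbb-bs* and 0.414 for *Hba-a1*. Given gene counts and ERCC share, their partial values with *Gh* were 0.0345, 0.0451, 0.0744 and -0.0508. No macrophage marker passed the filter. The part of such cell types in the balance of *Prl* and *Gh* was not tested, nor was that of a second cell in a chamber.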

How the data were processed

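Single cells of primary pituitary culture, 56 wells treated as 1 sample, were analysed from 1 table. The authors deposited estimated counts per gene and ERCC spike-in, without scaling to depth, and 33.5% of the values above 0 were not whole (*Prl* in 4 wells, *Gh* in 0), as when a read is divided between features. The submitters' processing notes name STAR 2.5.1b, featureCounts 1.5.0-p1 and mm10. The study names a GENCODE release for its bulk libraries, but the release and the strand setting used for this table are not given in the sources used here. All 56 columns matched 1 well each.

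CPM were calculated from the gene rows without the 92 ERCC rows. Symbols and positions came from GENCODE M21 (GRCm38) for 46488 of 47069 identifiers. Depth ran from 357 to 12563266 gene counts, and shares carry exact Clopper-Pearson 95% intervals. For shares of wells they treat wells as independent draws. For the share of *Gh* in the counts of both hormones within a well they cover counting error only. No doublet caller was run on 56 cells, and the tenth of wells with most genes was left out as an alternative. Spearman's rho and partial rho, given gene counts and ERCC share, were calculated in 46 wells with 100000 or more gene counts, after a check on simulated data. The genes named were *Prl*, *Gh*, the 10 highest and 5 lowest by rho with *Prl*, *Gh* and their ratio, and the lists of regulators, granule genes, hormones, prolactin family genes, neighbours and markers, some of whose members are not reported here. The members and lists, and the split of plate columns, were chosen with earlier results of these data known. Alternatives were the scaling, pseudocount, filter, thinning, wells included, plate columns and gene length. Coding sequences were aligned with Biopython 1.88, and other work used Python 3.11.15, numpy 2.4.6, scipy 1.17.1, pandas 2.3.3 and matplotlib 3.10.9.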

Additional observations from a re-analysis of the deposited data

How the results depend on the processing

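Of 125 alternative values of the main results 64 stayed within limits set around the reported value and 61 moved. The limits were wide: the share of wells with *Gh* above *Prl* stayed within them at 16.1% per kilobase of exon union, against 8.93%. The median *Prl* was 281147 CPM with both hormones taken out of the total. The median ratio was 0.142 per kilobase of exon union, 0.0370 in plate columns 1 to 3 and 7 to 9 and 0.146 in columns 4 to 6 and 10 to 12. The share of wells with the lesser hormone at 10% was 34.5% and 63.0% in these columns, 76.8% at a limit of 1% and 10.7% at 50%. The Spearman correlation of *Prl* and *Gh* was 0.236 in the latter columns and 0.534 per ERCC count. Median *Prl* per ERCC count was 1.53 and 0.279 in the sets of columns.

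Counts of genes are given as rho of at least 0.5, then at most -0.5. For *Prl* (5 and 1) they were 28 and 0 with the hormones out of the total, 8 and 22, 20 and 11, and 2 and 62 by Pearson with pseudocounts of 1, 0.1 and 10, 9 and 6 by partial rho, 2 and 0 in all 56 wells, 10 and 30 in the former columns (29 wells) and 230 and 122 in the latter (17 wells). High calls were 3 with detection in 80% of wells, and low calls were 4 after thinning, 7 with no filter and 2 with C10 and C11 counted once. For *Gh* (32 and 26) they were 121 and 171 in the former columns, 203 and 554 in the latter, and 2 and 0 by partial rho. High calls were 18 and 5 by Pearson with pseudocounts of 1 and 10, 15 after thinning and 21 in all wells, and low calls were 47 with the hormones out of the total, 49 at a mean of 1 CPM, 16 at 80% detection and 293 with no filter. For the ratio (1 and 5) they were 71 and 61 in the former columns, 21 and 287 in the latter, 2 and 18 with no filter, 2 and 8 and 0 and 9 by Pearson with pseudocounts of 1 and 10. High calls were 4 by partial rho and 2 after thinning, and low calls were 8 by Pearson with a pseudocount of 0.1, 27 with the hormones out of the total and 3 in all wells. Fewer wells widen the spread of rho by construction. Of 571 values of single genes 530 stayed within an interval around the reported value and 40 moved out of it. The interval was wide: *Abhd5* with *Prl* stayed within it at 0.290 after thinning, against 0.503. A further 1 that had been called changed sign, *Atf7ip* with the ratio, at -0.00735 in the latter columns. *Xrcc1*, not called, changed sign there too, to -0.0613.

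The length of the longest coding transcript was added after the data were seen, and its 5 values also stayed within the limits. Its median levels, 232817 for *Prl* and 13335 for *Gh*, were in CPM per kilobase but were compared with 208371 and 11494 CPM. The units differ, so for these levels the limits decide nothing. This also holds for the medians per kilobase of exon union, 147991 and 13335. No paired analysis was possible because the wells form 1 group and the result comes from no test. With 1 sample, spread between animals or cultures is unknown, and 10 wells under 100000 gene counts, all in 1 set of columns, limit what depth shows there.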
